A study of Zea mays with 18 samples.

Results

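The features described here are nuclear gene models of maize (Zea mays) whose transcripts were counted in every aleurone library of the study and were nearly absent from every starchy endosperm library. They were chosen from the counts themselves: 20 CPM (counts per mega-count, M, of all feature counts in the library) or more in all 9 aleurone libraries and less than 1 CPM in all 9 starchy endosperm libraries. The rule gave 87 members among 44146 nuclear gene models and 46430 features in all. Because the rule used the contrast of aleurone with starchy endosperm, that contrast is given below as a description without a test. "Only in aleurone" is the threshold's meaning: 53 of the 87 members had some counts in starchy endosperm. The files and the reference table pair 0 of the 87 identifiers with a gene symbol, so members carry their Zm00001d identifiers, no function is assigned to them, and the usual marker genes of aleurone and starchy endosperm were not analysed here.

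The aleurone is the outermost cell layer of the cereal endosperm. In maize it is the layer in which anthocyanin pigment accumulates, and its cells stay alive through seed drying and secrete enzymes at germination that digest the reserves of the starchy endosperm beneath, whose cells fill with starch and storage protein. The R1 locus, by which the study's genotypes are named, encodes basic helix-loop-helix regulators of the anthocyanin pathway, and its alleles differ in where and how strongly pigment forms.

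All libraries came from the inbred W22, from kernels of self-pollinated plants grown in the field, at 19 days after pollination. The 6 groups were aleurone and starchy endosperm of R1-g, which the series design gives as the wild type, of R1-sc and of r1-m3, with 3 libraries each. The labels describe the alleles no further, and they do not say how many kernels were dissected for a library. Tissue was cut out by laser capture microdissection, and 5 ng of RNA was amplified before library construction. The p-values therefore measure the spread between libraries, in which any differences between plants or kernels, captures and amplifications come together. The series design calls the libraries biological replicates. Counts on features ranged from 12.5 to 20.4 M per library, so that 1 count was worth 0.0490 to 0.0801 CPM.

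Replicate 3 of r1-m3 aleurone stood apart. For the members, its value lay between those of replicates 1 and 2 in 79 of 87 cases, while in the other aleurone groups a replicate 3 lay between the other two in 32 cases (R1-g) and 27 cases (R1-sc). A weighted mean with a weight of 0.43 on replicate 1 and the remainder on replicate 2 matched it with a median deviation of 1.02-fold, against 1.47-fold for the best such mean in R1-g and 1.55-fold in R1-sc. Over the 1396 nuclear features that reached 20 CPM in all 9 aleurone libraries, it lay between the other two in 88.9% of cases, against 34.6% in R1-g and 32.7% in R1-sc. This library is therefore left out of means, SDs and tests below (n = 2 for r1-m3 aleurone), and its values are given beside the others. Leaving it out of the rule, which can add features but not remove any, gave 87 features, the same 87 members.

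**Figure D1:**
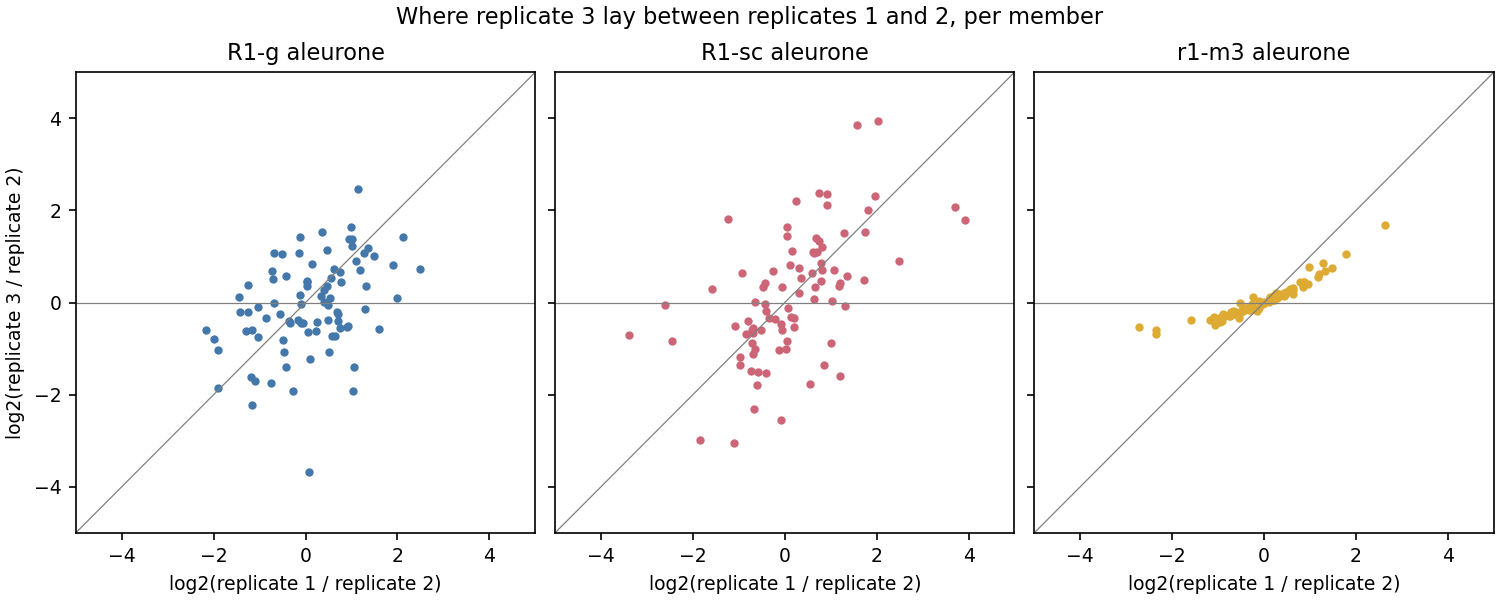
Position of replicate 3 relative to replicates 1 and 2 for each of the 87 members (points), in the aleurone of R1-g, R1-sc and r1-m3; both axes are log2 ratios of CPM, the horizontal line marks replicate 3 equal to replicate 2 and the diagonal marks it equal to replicate 1. Points between the lines lie between the other two replicates, as 79 of 87 do in r1-m3 against 32 in R1-g and 27 in R1-sc.

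The members were a small part of what was present throughout the aleurone. Of the 1396 nuclear features at 20 CPM or more in all 9 aleurone libraries, 1092 (78.2%) also reached 20 CPM in at least 1 starchy endosperm library, and 549 reached it in all 9. A further 151 peaked at 5 to 20 CPM in starchy endosperm and 66 at 1 to 5 CPM. The 87 members were 6.23% of the 1396, and 34 of them had 0 counts in all 9 starchy endosperm libraries. The same thresholds with the compartments exchanged gave 14 nuclear features, present in all starchy endosperm libraries and below 1 CPM in all aleurone libraries. Both 87 and 14 rest on plain library totals. With TMM-scaled totals the members' rule gave 56 features, and the exchanged rule was not run on such totals.

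The floor of 20 CPM in every aleurone library removed most candidates. Of 28156 nuclear features below 1 CPM in all 9 starchy endosperm libraries, 469 had a mean of 20 CPM or more over the 8 aleurone libraries used, and 87 of these (18.6%) reached 20 CPM in all 9. Of the 469, 131 (27.9%) had 0 counts in at least 1 of the 8 aleurone libraries. The floor of 20 CPM also limits the members' spread between libraries. Just inside the aleurone threshold, Zm00001d032519 had its lowest value of 20.4 CPM in r1-m3 replicate 1, Zm00001d017990 20.6 CPM in the same library and Zm00001d021813 21.0 CPM in R1-g replicate 2. Just outside were Zm00001d040029 at 19.6 CPM, Zm00001d020309 at 19.0 CPM and Zm00001d033129 at 18.9 CPM. On the side of starchy endosperm, Zm00001d053009 peaked at 0.980 CPM, Zm00001d000294 at 0.934 CPM and Zm00001d031893 at 0.914 CPM, while Zm00001d043464 at 1.06 CPM and Zm00001d053090 and Zm00001d037334, both at 1.12 CPM, fell outside.

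**Figure D2:**
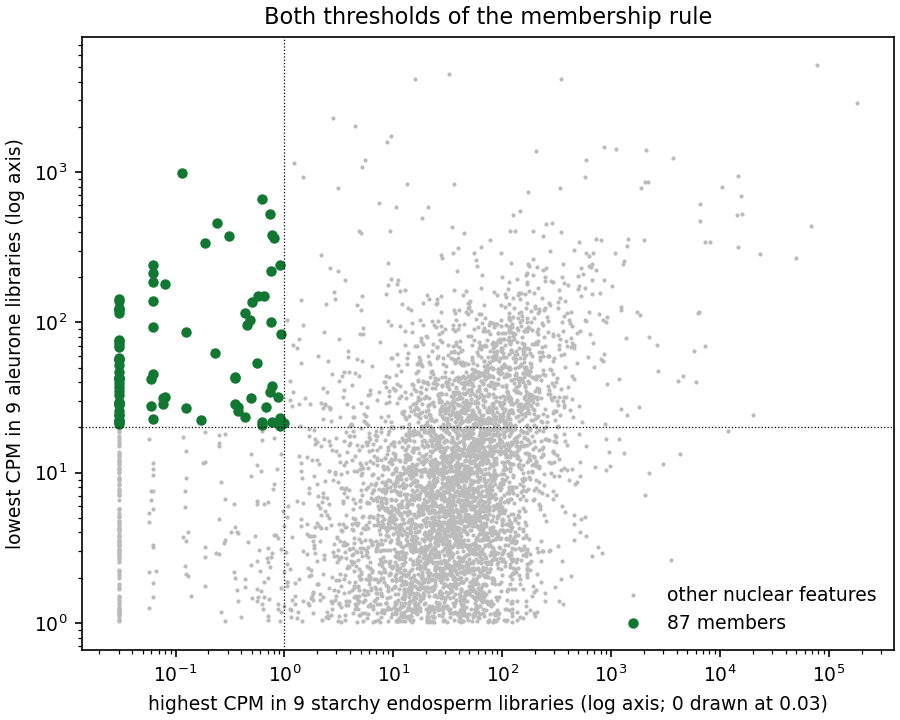
Lowest CPM in the 9 aleurone libraries (vertical, log axis) against highest CPM in the 9 starchy endosperm libraries (horizontal, log axis, 0 drawn at 0.03) for nuclear features at 1 CPM or more in every aleurone library; dotted lines mark 20 and 1 CPM. The 87 members (green) fill the upper left corner, and 34 of them sit at 0 counts in starchy endosperm.

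Mean levels of the members over the 8 aleurone libraries ran from 46.9 to 1785 CPM, with a median of 144 CPM; read counts are not scaled by transcript length, so an order of levels among features is an order of counts. Means reached 500 CPM in 8 members and 200 CPM in 29, lay between 100 and 200 CPM in 37 and were below 100 CPM in 21. The 12 highest members held 45.8% of the members' summed level and the 5 highest 28.9%.

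The highest member, Zm00001d042019, had 659, 1061 and 2226 CPM in R1-g, 1802, 2417 and 3248 CPM in R1-sc, and 1264 and 1603 CPM in r1-m3 (1473 CPM in replicate 3). Its R1-g libraries spread more than 3-fold and overlapped those of both other genotypes. Zm00001d012572 had 1803, 2016 and 1559 CPM in R1-g, 989, 1373 and 1722 CPM in R1-sc, and 1856 and 1309 CPM in r1-m3 (1537 in replicate 3), and against this it left 2 counts in all 9 starchy endosperm libraries together. Its highest and lowest aleurone libraries were 2.04-fold apart, and the genotypes overlapped. Zm00001d024753 had 459, 1021 and 674 CPM in R1-g, 905, 811 and 1772 CPM in R1-sc, and 858 and 1431 CPM in r1-m3 (1207 in replicate 3). Again the groups overlapped.

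Zm00001d045321 was lowest in r1-m3, with 1121, 658 and 892 CPM in R1-g, 1347, 1053 and 1525 CPM in R1-sc, and 559 and 523 CPM in r1-m3 (528 in replicate 3). Both r1-m3 values lay below all values of the other genotypes, and R1-g and R1-sc overlapped. Zm00001d040613 had 923, 666 and 852 CPM in R1-g, 868, 839 and 468 CPM in R1-sc, and 615 and 338 CPM in r1-m3 (463 in replicate 3), so that r1-m3 lay below R1-g but not below R1-sc. Zm00001d036238 had 240, 393 and 563 CPM in R1-g, 622, 650 and 815 CPM in R1-sc, and 601 and 650 CPM in r1-m3 (600 in replicate 3). Here R1-g was the lowest group, without overlap with either of the others.

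The remaining members among the 12 highest had means over the 8 libraries of 712 ± 287 CPM (Zm00001d006796), 546 ± 160 CPM (Zm00001d029062), 499 ± 103 CPM (Zm00001d019446), 468 ± 159 CPM (Zm00001d031893), 381 ± 284 CPM (Zm00001d045269) and 375 ± 179 CPM (Zm00001d050323) (SD, n = 8 each). In relation to the mean, the SD was the largest of the 6 in Zm00001d045269 and the smallest in Zm00001d019446.

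**Figure D3:**
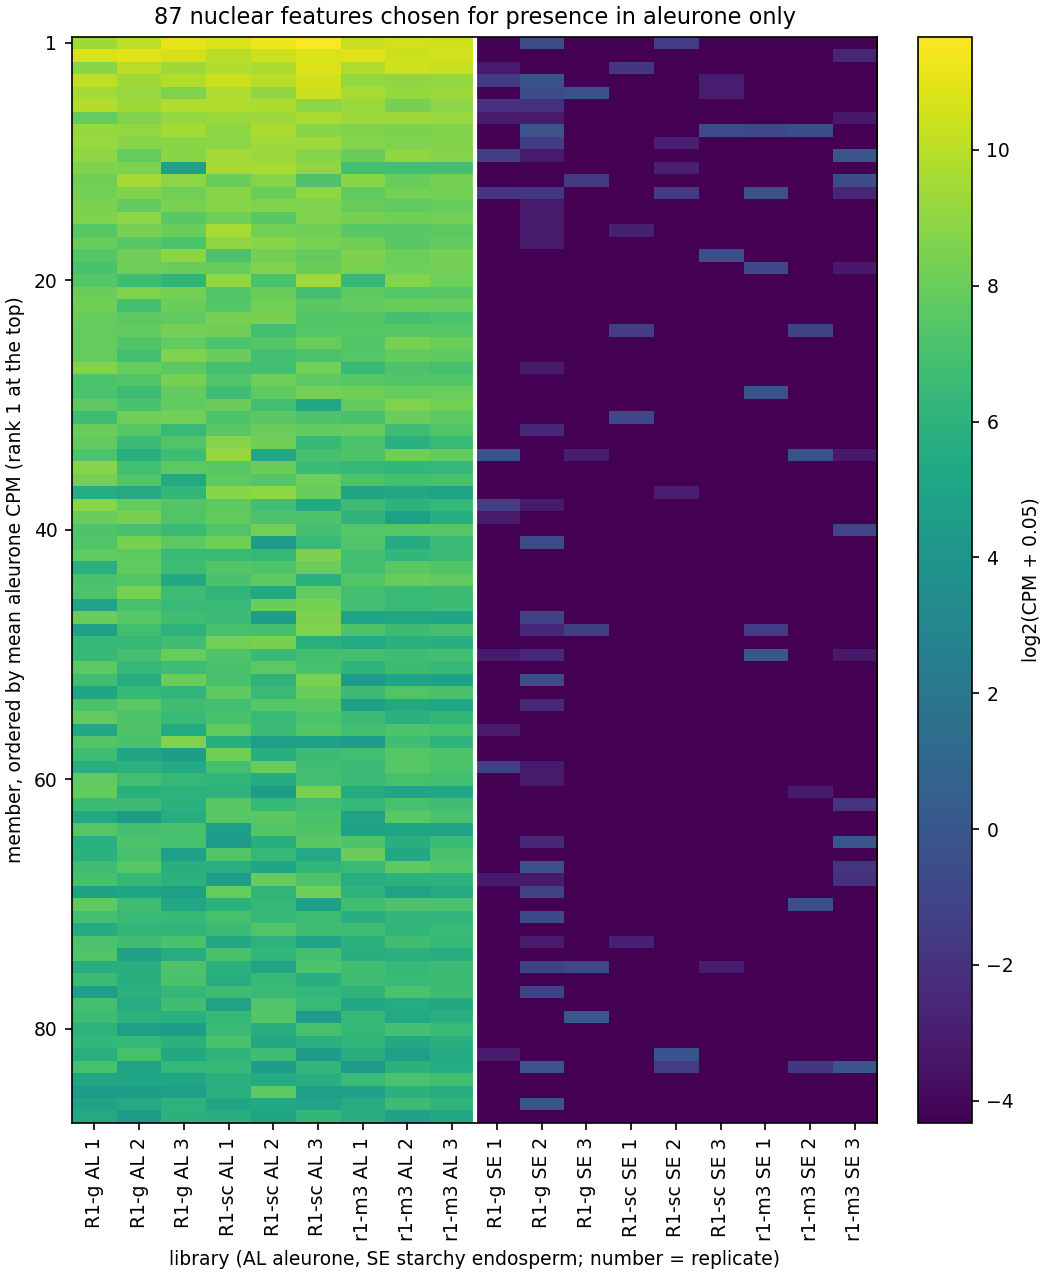
Level of each of the 87 members (rows, ordered by mean aleurone CPM) in each of the 18 libraries (columns), as log2(CPM + 0.05); the white line divides aleurone from starchy endosperm. All members are bright in the 9 aleurone columns by the rule, and the scattered marks on the right are the 97 combinations of member and starchy endosperm library that held any counts, 34 of them in R1-g replicate 2.

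Counts of the members in starchy endosperm were traces, which the rule's limit of 1 CPM in each library fixed in advance. That limit also bounds the highest count and the ratio given here. Together the 9 starchy endosperm libraries held 517 counts on members, against 2593613 in the 8 aleurone libraries, which is 3.75 CPM against 2.09% of counts and a ratio of 5579 after pooling. Of 783 combinations of a member and a starchy endosperm library, 97 had any counts, with a median of 4 counts and a highest value of 16, and 33 of the 97 were a lone count. Traces came from 1 library for 27 members, from 2 libraries for 14 and from 3 or more for 12. For a member with 0 counts, 3 counts set the limit per library at 0.171 to 0.240 CPM; limits cover counting error only.

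R1-g starchy endosperm replicate 2 held 172 of the 517 counts (33.3%), spread over 34 members, where the other 8 libraries held 15 to 85 counts on 5 to 14 members. By genotype, R1-g held 264 of the counts, r1-m3 held 191 and R1-sc held 62. The mean aleurone level had a median of 173 CPM in the 53 members with counts in starchy endosperm and 130 CPM in the 34 without. Zm00001d029062, eighth by aleurone level, had the most, with 41 counts in 4 libraries and at most 0.806 CPM. Zm00001d032519 had 37 counts in 4 libraries, although its aleurone mean was 62.3 CPM, and Zm00001d038123 had 27 counts in 4 libraries. Zm00001d040027 had 26 counts in 5 libraries, the widest occurrence. Whether such reads came from aleurone cells in the cut or from expression in the starchy endosperm was not tested, and in captured tissue a smaller number of cells and less RNA per cell cannot be told apart.

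Within aleurone, members differed widely in steadiness. The SD of log2 CPM over the 8 libraries had a median of 0.74 and ran from 0.29 to 1.67, and the highest library exceeded the lowest by 1.71-fold to 27.2-fold, with a median of 4.83-fold. For 21 members this range was under 3-fold, and for 16 it was 10-fold or more. Over all 1396 nuclear features at 20 CPM or more in all 9 aleurone libraries, members included, the median SD was 0.80. These are called steady features below for that floor alone, not for a small SD. Within genotypes alone, the SD had a median of 0.64 in the members and 0.76 in the 1396.

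The steadiest member was Zm00001d019446, with 578, 439 and 445 CPM in R1-g, 476, 642 and 631 CPM in R1-sc, and 408 and 375 CPM in r1-m3 (405 in replicate 3). Zm00001d012572 came next with an SD of log2 CPM of 0.34, then Zm00001d040027 with 0.40, Zm00001d045988 with 0.40 and Zm00001d029062 with 0.41. All 5 were among the 14 most abundant members. The least steady were Zm00001d041578 with an SD of 1.67, Zm00001d045269 with 1.65, Zm00001d036483 with 1.49, Zm00001d038870 with 1.48 and Zm00001d017990 with 1.42.

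Unsteady members differed in how much of the spread lay between genotypes. Zm00001d038870 had 271, 183 and 110 CPM in R1-g, 96.3, 23.5 and 360 CPM in R1-sc, and 30.9 and 38.5 CPM in r1-m3 (34.6 in replicate 3). Its R1-sc libraries spanned those of both other genotypes, r1-m3 lay below R1-g, and 43.5% of the variance of its log2 CPM was between genotypes. In Zm00001d041578 that part was 94.6%, where the median over the members was 37.9% and over the 1396 steady features 26.6%. The part is not corrected for the few libraries per genotype, so spread between replicates alone also adds to it. No library was highest for most members. R1-sc replicate 3 held the highest of the 8 values for 20 of 87 members and r1-m3 replicate 1 for 1, and R1-g replicate 1 was the highest for 14 and the lowest for 17.

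The members' share of all feature counts was ordered by genotype. It was 2.0, 1.94 and 1.97% in R1-g aleurone, 2.36, 2.26 and 2.61% in R1-sc aleurone, and 1.74 and 1.80% in r1-m3 aleurone (1.78% in replicate 3). The means were 1.97 ± 0.0317% (n = 3), 2.41 ± 0.180% (n = 3) and 1.77 ± 0.0451% (SD, n = 2), and no library of a genotype overlapped with another genotype. No p is given, since the members were selected on these values. As a share of nuclear counts alone, R1-sc stayed above the others at 3.49 to 3.97%, while R1-g at 2.80 to 3.35% and r1-m3 at 2.61 to 3.03% overlapped. Nuclear features took 57.0 to 71.5% of counts in the aleurone libraries, and the part of this in the share was not tested further.

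The 5 most abundant members did not carry this order alone. Without them the shares were 1.39 to 1.53% in R1-g, 1.65 to 1.77% in R1-sc and 1.21 to 1.26% in r1-m3, still without overlap. The summed level of the members was 4445 CPM higher in R1-sc than in R1-g. Zm00001d042019 gave 1174 CPM of this, Zm00001d024753 gave 444 CPM and Zm00001d045321 gave 418 CPM, while Zm00001d012572 was 431 CPM lower in R1-sc. Between r1-m3 and R1-g, where the sum fell by 1989 CPM, Zm00001d024753 was 426 CPM higher and Zm00001d045321 was lower by 349 CPM (a difference of -349 CPM).

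**Figure D4:**
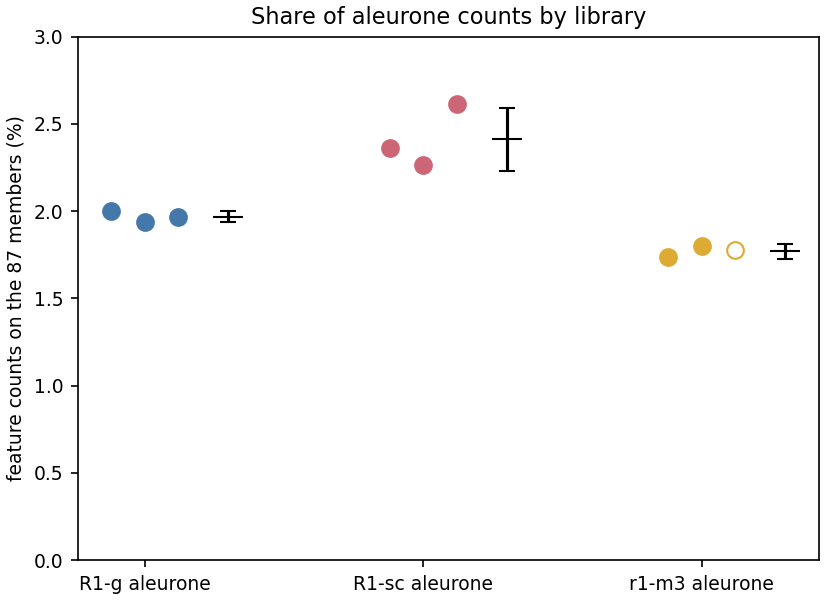
Share of all feature counts on the 87 members, in percent, for each aleurone library (points) by genotype; bars give mean ± SD, and the open point is r1-m3 replicate 3, which enters neither. The R1-sc libraries lie at 2.26 to 2.61%, R1-g at 1.94 to 2.0% and r1-m3 at 1.74 to 1.80%.

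R1-sc had the highest mean of the 3 genotypes for 45 of the 87 members (51.7%), R1-g for 26 and r1-m3 for 16. Over the 1396 steady features R1-sc was the highest for 37.0%. r1-m3 had the lowest mean for 40 members (46.0%), against 32.6% of the steady features. These orders were not tested.

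The comparisons of genotypes within aleurone ask whether any member depended on the R1 allele. The rule did not compare genotypes, but its floor of 20 CPM in every aleurone library kept out features absent or low in any genotype. The comparisons therefore cannot speak for such features. They were tested with edgeR's quasi-likelihood test over all 19111 features that passed a filter on low counts. Benjamini-Hochberg adjustment was over all of these features. All 87 members passed the filter and were tested. The 3 comparisons share libraries with each other. edgeR called 0 members in each. Of all features it called 0.283% between R1-sc and R1-g, 0.199% between r1-m3 and R1-g and 0.0733% between r1-m3 and R1-sc, shares at which fewer than 1 of 87 features would be called. DESeq2, run as an alternative, called 1 member in each comparison, named below, and 6.41, 3.18 and 3.49% of all features in the same order, so its share of members was below that of all features.

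At an unadjusted p under 0.05 by edgeR stood 6 members in the comparison of R1-sc with R1-g, where the share of all features was 14.2%. Of these, 5 were higher in R1-sc (all features 6.59%) and 1 was lower (7.63%). In r1-m3 against R1-g it was 1 member, lower in r1-m3 (all features 8.15% in both directions, 6.23% higher and 1.92% lower). In r1-m3 against R1-sc it was 6 members, all lower in r1-m3 (all features 9.62% in both directions, 7.43% higher and 2.19% lower). Of the 1396 steady features the shares were 6.66, 3.44 and 3.58%. An edgeR fit of the aleurone libraries alone put 10, 9 and 13 members under this threshold, beside 1752, 865 and 1059 of 16823 features. Of the 10, 9 were higher in R1-sc and 1 was lower, and all of the 9 and the 13 were lower in r1-m3. For this fit the shares by direction over all features and over the steady features were not computed, so these directions have no background beside them. The counts of members therefore depended on whether starchy endosperm libraries entered the fit.

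The log2 fold changes of the members had medians of 0.37 for R1-sc minus R1-g, -0.43 for r1-m3 minus R1-g and -0.68 for r1-m3 minus R1-sc, beside a median of 0 over all features in each comparison and medians over the steady features of 0.09, -0.19 and -0.29. By sign, 55 members were positive in the first comparison, 33 in the second and 17 in the third. The shares of positive features over all features and over the steady features were not computed. With plain library totals in place of TMM scaling, the medians of the members were 0.28, -0.28 and -0.46, and 53, 37 and 26 members were positive. The median of all features moved to 0.12 in the third comparison.

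Many members had libraries that did not overlap between genotypes. Between R1-sc and R1-g, 12 members (13.8%) lay higher in R1-sc in all libraries, where the share was 3.91% of all features tested and 7.52% of the steady features; 2 lay lower (5.33 and 5.95%). Between r1-m3 and R1-g, with 2 libraries of r1-m3, 23 members (26.4%) lay lower in r1-m3, where the shares were 4.88 and 8.52%, and 12 lay higher (14.2 and 13.5%). Between r1-m3 and R1-sc, 18 members (20.7%) lay lower in r1-m3, where the shares were 4.08 and 9.67%, and 5 lay higher (16.1 and 12.5%). The shares of all features tested include features at 0 counts in some aleurone libraries, which the rule kept out of the members and of the steady set.

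The member furthest apart was Zm00001d041578. It had 463, 502 and 246 CPM in R1-sc, against 47.8, 43.6 and 78.4 CPM in R1-g and 32.7 and 36.1 CPM in r1-m3 (31.6 in replicate 3). The lowest R1-sc library stood more than 3-fold above the highest library of the other genotypes, and r1-m3 lay below R1-g. Mean levels were 404 ± 138 CPM in R1-sc (n = 3), 56.6 ± 19.0 CPM in R1-g (n = 3) and 34.4 ± 2.41 CPM in r1-m3 (n = 2). The log2 fold change was 2.88 (SE 0.833, edgeR adjusted p = 0.178) for R1-sc minus R1-g. It was -3.80 (SE 1.03, edgeR adjusted p = 0.283) for r1-m3 minus R1-sc. DESeq2 called both differences (adjusted p = 0.00296 and 0.0003), and over the alternatives the adjusted p ranged from 0.00296 to 0.358 for the first and from 0.0003 to 0.850 for the second. In starchy endosperm this member had 1 count, in R1-sc replicate 2.

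Zm00001d045269 was also highest in R1-sc, with 740, 775 and 513 CPM, against 119 and 120 CPM in r1-m3 (116 in replicate 3). In R1-g it had 386, 364 and 28.5 CPM, so that 1 R1-g library lay below r1-m3 and the others above. The difference of r1-m3 from R1-sc was -2.75 on the log2 scale (SE 0.912, edgeR adjusted p = 0.473). Zm00001d029366 had 242, 69.2 and 279 CPM in R1-sc and 27.8, 35.8 and 27.2 CPM in R1-g, while r1-m3, at 66.2 and 29.3 CPM (43.0 in replicate 3), overlapped R1-g. Its log2 fold change was 2.74 for R1-sc minus R1-g (SE 1.20, edgeR adjusted p = 0.318). Neither difference passed.

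Zm00001d021813 had 179, 190 and 137 CPM in R1-sc and 42.3, 21.0 and 48.9 CPM in R1-g, a log2 fold change of 2.24 (SE 1.06, edgeR adjusted p = 0.346). In r1-m3 the replicates spanned both groups, at 29.2 and 194 CPM (134 in replicate 3). Zm00001d030172 had 125, 246 and 109 CPM in R1-sc and 93.9 and 179 CPM in r1-m3 (141 in replicate 3), both above R1-g at 54.9, 59.1 and 43.5 CPM. The log2 fold changes against R1-g were 1.73 in R1-sc (SE 1.03, edgeR adjusted p = 0.455) and 1.25 in r1-m3 (SE 1.10, edgeR adjusted p = 0.915). R1-g was here the lowest group without overlap.

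In the other direction, Zm00001d036483 had 55.3, 27.1 and 27.7 CPM in R1-sc and 171, 133 and 383 CPM in R1-g, a log2 fold change of -2.65 (SE 1.04, edgeR adjusted p = 0.298). The r1-m3 libraries lay at 21.8 and 111 CPM (68.8 in replicate 3), below all R1-g libraries. Zm00001d037257 had 40.9, 63.7 and 31.7 CPM in R1-sc and 144, 109 and 132 CPM in R1-g (log2 fold change -1.40, SE 1.09, edgeR adjusted p = 0.623). These 2 were the only members for which all R1-sc libraries lay below all R1-g libraries.

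**Figure D5:**
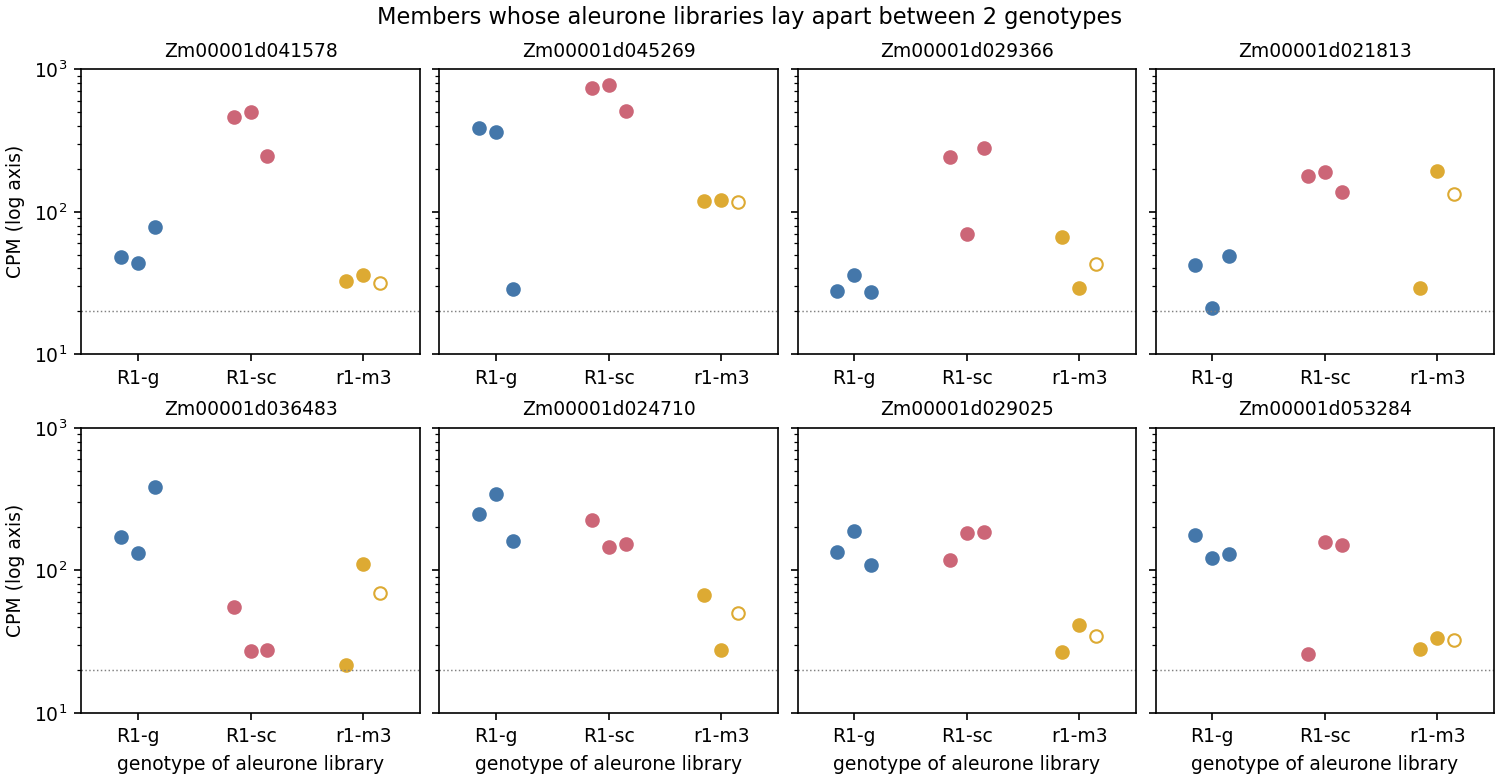
CPM (log axis) of 8 members in each aleurone library, by genotype; open points are r1-m3 replicate 3 and the dotted line marks the threshold of 20 CPM. Zm00001d041578 lies at 246 to 502 CPM in R1-sc and at 32.7 to 78.4 CPM in the other filled points, with the open point at 31.6 CPM. In all members of the lower row the r1-m3 libraries lie below all R1-g libraries.

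Members low in r1-m3 formed the largest set by non-overlap (23 of 87 against R1-g). With only 2 libraries of r1-m3, groups separate more easily than with 3 libraries on each side. Zm00001d024710 had 67.5 and 27.6 CPM in r1-m3 (49.8 in replicate 3), against 249, 342 and 162 CPM in R1-g and 225, 145 and 153 CPM in R1-sc. Its log2 fold change for r1-m3 minus R1-g was -2.59 (SE 0.991, edgeR adjusted p = 0.582). DESeq2 called this difference (adjusted p = 0.0316), and the alternatives ranged from 0.0316 to 1. Both r1-m3 libraries lay below all 6 libraries of the other genotypes.

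Zm00001d029025 had 26.9 and 41.1 CPM in r1-m3 (34.8 in replicate 3), 135, 190 and 108 CPM in R1-g and 118, 183 and 185 CPM in R1-sc, and the difference from R1-sc was -2.50 (log2, SE 1.14, edgeR adjusted p = 0.512). R1-g and R1-sc overlapped and r1-m3 lay below both. Zm00001d017990 had 20.6 and 32.8 CPM in r1-m3 (28.9 in replicate 3), close to the threshold, against 107, 48.4 and 268 CPM in R1-g and 127, 66.9 and 344 CPM in R1-sc. The difference was -2.61 from R1-g (log2, SE 1.37, edgeR adjusted p = 0.646) and -2.96 from R1-sc (log2, SE 1.40, edgeR adjusted p = 0.512).

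Zm00001d053284 had 27.9 and 33.3 CPM in r1-m3 (32.5 in replicate 3) and 176, 121 and 130 CPM in R1-g, but 1 of the R1-sc libraries, at 25.8 CPM, was as low as r1-m3 while the others had 157 and 150 CPM. The difference of r1-m3 from R1-g was -2.36 (log2, SE 1.24, edgeR adjusted p = 0.646). For Zm00001d038870, given above, it was -2.55 (log2, SE 1.32, edgeR adjusted p = 0.636). Neither passed the threshold.

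Among members high in r1-m3, the fitted differences reached 1.55 on the log2 scale. Zm00001d009112 had 87.7 and 136 CPM in r1-m3 (116 in replicate 3), against 33.1, 35.4 and 34.7 CPM in R1-g and 56.0, 45.1 and 52.1 CPM in R1-sc. The 3 genotypes did not overlap at all, and the SD between R1-g replicates was 1.16 CPM. The log2 fold changes of r1-m3 were 1.55 against R1-g (SE 1.39, edgeR adjusted p = 0.924) and 0.91 against R1-sc (SE 1.39, edgeR adjusted p = 0.973). In the fit, each feature's spread is moderated towards that of all features over 17 libraries.

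Zm00001d048948 had 114 and 178 CPM in r1-m3 (154 in replicate 3) and 108, 35.7 and 24.1 CPM in R1-g, and Zm00001d015195 had 79.3 and 116 CPM (92.2 in replicate 3) and 65.6, 26.8 and 24.3 CPM. Their log2 fold changes of 1.31 and 1.23 did not pass (edgeR adjusted p = 0.900 and 0.959). Both overlapped with R1-sc, at 53.9 to 300 CPM and 55.3 to 127 CPM. Against R1-sc, Zm00001d042869 (91.8 and 208 CPM in r1-m3, 34.2 to 73.5 CPM in R1-sc), Zm00001d037918 (108 and 147 CPM, 27.5 to 79.0 CPM) and Zm00001d002360 (48.3 and 101 CPM, 32.3 to 41.1 CPM) lay higher in r1-m3, with log2 fold changes of 1.27, 0.96 and 0.82 and edgeR adjusted p of 0.901, 0.959 and 1. None of these passed.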

How the data were processed

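The authors deposited 1 table of whole-number read counts per library, without normalization, for 46430 features, with 5 further HTSeq rows for reads that no feature received. The submitters' processing notes name the build B73 RefGen_v4, trimming with Trimmomatic 0.39, FastQC, SAMtools, HISAT2, counting with HTSeq 0.11.2, and DESeq2; settings and strand use are not given in the sources used here, so reads of overlapping and antisense genes cannot be told apart. These 5 rows (66.9 to 75.0% of table totals) stayed out of library sizes. Of these, reads that aligned to several places (42.2 to 55.0% of table totals) were not counted, so near-identical gene copies are uncertain.

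Members, lists and tests were chosen with earlier results of these data known. Levels are CPM on all feature counts. Genotypes were compared within aleurone with edgeR 4.0.16 (R 4.3.3): filterByExpr, TMM, robust quasi-likelihood F tests, 6 group means, 17 libraries without r1-m3 aleurone replicate 3, called at adjusted p under 0.05. The SE is the log2 fold change divided by the square root of F. Alternatives were DESeq2 1.42.0, other scalings, filters, thresholds and libraries, and a replicate block. Named members are the 12 highest, the 5 most and 5 least variable, those around the thresholds, the 3 with most starchy endosperm counts and, per comparison and direction, up to 4 with the largest fold changes among members without overlap; others were named after their values were seen. Scripts were tested on simulated counts, with R1-sc aleurone changed in features of any kind, not in members alone. Those features had a pooled, TMM-scaled level of 20 CPM or more over the aleurone libraries, without the members' floor in every library. Of features changed 8-fold, edgeR called 6 of 100 for R1-sc minus R1-g and 4 of 100 for r1-m3 minus R1-sc. At 64-fold it called 77 and 70 of 100. Most 8-fold changes were thus missed in the simulation. Its features were not held to the members' floor, so these shares do not give the share that would be called among members. Still, 0 members called does not mean equal levels.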

Additional observations from a re-analysis of the deposited data

How the results depend on the processing

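The count of 0 members called by edgeR held in all 3 genotype comparisons under other scalings, no filter on low counts, all 18 libraries, the 8 aleurone libraries alone, each compared library left out in turn (0 to 0), R1-g starchy endosperm replicate 2 left out (chosen after seeing the data) and the replicate block (0 called). A count at its floor says little about stability, and without r1-m3 replicate 1 or 2 the lone r1-m3 aleurone library is assumed to vary like the other groups. DESeq2 called 1 in each: Zm00001d041578 in both comparisons with R1-sc (log2 fold changes of 2.92 and -3.91) and Zm00001d024710 between r1-m3 and R1-g (-2.66); the cause of the difference between tools was not tested. Over all features, the counts of 54, 38 and 14 became 1225, 608 and 667 with DESeq2, 308, 121 and 99 without a filter, 11, 3 and 5 with aleurone libraries alone, and 35, 28 and 11 with the replicate block. Deviations of same-numbered aleurone libraries of different genotypes had r from -0.004 to 0.019 over 7 pairs, across features. Pairs with different numbers had r from -0.021 to 0.018. The deviations of the 2 r1-m3 libraries mirror each other, so the pairs are not independent. Whether same-numbered libraries were handled together was not tested. The fold changes printed, of 18 members in the comparisons given, did not reverse under these alternatives; those of the other named members are not given.

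The rule gave 132 features at 10 CPM in aleurone, 41 at 50 CPM, 34 at 0 counts in starchy endosperm and 56 with TMM-scaled totals, where the 17 fitted libraries had factors of 1.20 to 1.68 in aleurone and 0.683 to 0.837 in starchy endosperm. Leaving out 1 library gave 87 to 101, the highest without R1-g starchy endosperm replicate 2. A rule over fewer libraries can add features but not remove any, so this could not have lost a member. The members' share of nuclear counts was 3.14% for R1-g, 3.80% for R1-sc and 2.82% for r1-m3, and without the 5 most abundant members their share of all counts was 1.44, 1.69 and 1.23%. Leaving out 1 library of a group gave 1.95 to 1.98%, 2.31 to 2.49% and 1.74 to 1.80%. Amplified low-input libraries with 2 or 3 per group limit what a comparison of genotypes can call.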
